A study of Mus musculus with 40 samples.

Results

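The clustered histone genes of the mouse encode the linker histone H1 and the core histones H2A, H2B, H3 and H4. They were taken as the protein-coding GENCODE M21 genes of build mm10 whose symbol starts with Hist1h, Hist2h, Hist3h or Hist4h, which gave 67 of 21938 protein-coding genes. The Hist1 cluster on chromosome 13 held 54 of them, the Hist2 cluster on chromosome 3 held 10, the Hist3 cluster on chromosome 11 held 2, and Hist4h4 stood alone on chromosome 6. By product, 6 encode H1, 18 H2A, 18 H2B, 12 H3 and 13 H4.

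H3K27ac, acetylation of lysine 27 of histone H3, marks active promoters and enhancers, and was measured by ChIP-seq in preadipocytes cultured from the inguinal white fat of C57BL/6 mice. Cells of wild-type (WT) mice were compared with cells of double knockout (DKO) mice, which lack HMGN1 and HMGN2, proteins that bind nucleosomes, at days 0, 3, 6 and 9 of browning, with 3 libraries in each of the 8 groups. Per the study's methods the libraries were biological replicates and the mice were 8 to 12 weeks old. Day 0 cells were preadipocytes, and confluent cells of both genotypes received insulin, dexamethasone, IBMX, T3 and rosiglitazone for 4 days and then insulin and T3 for 4 days. The DKO mice carried Hmgn1-/- and Hmgn2-/- alleles, and the sources used here name no Cre or transgene that would limit the loss to fat. The labels do not give the number of mice behind a library.

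Most clustered histone genes are expressed while DNA is replicated, when new chromatin needs histones in bulk. Their mRNAs lack introns and a poly(A) tail and end in a short stem-loop that the protein SLBP binds, and the coactivator NPAT gathers at the clusters. A few members are instead used mainly in the testis, among them Hist1h1t (H1t), Hist1h2ba (testis H2B) and Hist1h2aa (testis H2A). Genes of the replication-independent variants, such as H3f3a and H2afz, lie outside the clusters and are polyadenylated.

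The sequence before the starts differed between the families. RefSeq's promoter table for GRCm38.p6 (250 bases before to 50 after the start) held 62 of the 67 members, and Hist1h2bc, Hist1h3a, Hist1h3f, Hist2h2be and Hist2h4 had no entry. Exact letters were searched on both strands, and none of the 4 motifs lies inside another. CCAAT was found in 53 of the 62 members (85.5%) and in 39% of 17491 protein-coding promoters. It was present in all 6 H1, 18 H2A, 16 H2B and 10 H3 promoters matched, but in 3 of 12 H4 promoters (25%). TATAAA was found in 56.5% of members and 13.3% of all promoters. ATTTGCAT, the octamer of H2B promoters, was found in 7 of 18 H2A and 6 of 16 H2B promoters, in none of the H1, H3 and H4 promoters, and in 1.71% of all promoters. The stretches of Hist1h2ah and Hist1h2bk, of Hist1h2ae and Hist1h2bg, and of Hist1h2aa and Hist1h2ba overlap. With both strands searched, 1 match can therefore count in both families. AAACACA, the H1 box, was found in 5 of 6 H1 promoters and in 6.13% of all promoters. A match is a description of letters and not of binding.

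The 200 bases just before the RefSeq start are shown for 7 members, in build GRCm38 and 5′ to 3′ along the gene, with any of the 4 motifs on either strand in capitals. The first 5 had the H3K27ac peak of best rank in their family among members with an entry, or share it (Hist2h2ac with Hist2h2be). Hist1h2bg is shown as an H2B promoter whose octamer lies close to its TATA box, and Hist1h2ba as a testis gene that held the same letters and no peak.
Hist1h1c, chr13:23738607-23738806, plus strand: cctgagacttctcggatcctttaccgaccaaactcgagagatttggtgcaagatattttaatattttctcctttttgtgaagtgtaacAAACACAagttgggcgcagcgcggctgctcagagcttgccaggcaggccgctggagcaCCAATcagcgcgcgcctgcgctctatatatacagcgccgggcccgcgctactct
Hist2h2aa1, chr3:96245297-96245496, plus strand: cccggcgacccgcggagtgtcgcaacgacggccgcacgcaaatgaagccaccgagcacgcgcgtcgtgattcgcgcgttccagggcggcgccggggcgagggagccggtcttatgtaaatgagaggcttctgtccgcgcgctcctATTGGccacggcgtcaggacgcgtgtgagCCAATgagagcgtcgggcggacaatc
Hist2h2ac, chr3:96220881-96221080, minus strand: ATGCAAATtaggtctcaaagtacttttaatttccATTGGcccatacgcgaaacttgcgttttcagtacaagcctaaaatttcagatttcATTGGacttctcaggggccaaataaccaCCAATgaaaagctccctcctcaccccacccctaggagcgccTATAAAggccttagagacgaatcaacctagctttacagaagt
Hist2h3b, chr3:96268454-96268653, plus strand: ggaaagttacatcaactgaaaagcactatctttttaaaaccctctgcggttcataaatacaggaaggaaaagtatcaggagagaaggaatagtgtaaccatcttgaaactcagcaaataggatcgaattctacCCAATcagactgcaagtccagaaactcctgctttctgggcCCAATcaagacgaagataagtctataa
Hist4h4, chr6:136804432-136804631, minus strand: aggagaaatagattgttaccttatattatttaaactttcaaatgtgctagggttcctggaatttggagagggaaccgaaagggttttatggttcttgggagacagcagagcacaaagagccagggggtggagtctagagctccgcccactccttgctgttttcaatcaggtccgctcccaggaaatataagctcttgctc
Hist1h2bg, chr13:23571200-23571399, plus strand: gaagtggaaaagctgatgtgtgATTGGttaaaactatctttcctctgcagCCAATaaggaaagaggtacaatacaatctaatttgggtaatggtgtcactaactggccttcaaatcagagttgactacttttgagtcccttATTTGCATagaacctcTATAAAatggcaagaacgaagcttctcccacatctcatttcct
Hist1h2ba, chr13:23934157-23934356, minus strand: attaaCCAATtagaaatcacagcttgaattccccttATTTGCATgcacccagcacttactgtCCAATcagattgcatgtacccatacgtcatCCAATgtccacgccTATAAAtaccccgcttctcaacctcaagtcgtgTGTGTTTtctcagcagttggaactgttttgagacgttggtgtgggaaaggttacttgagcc

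The stem-loop was searched by its shape on the sense strand, within 2000 bases after each start. The shape was GG, 3 pyrimidines and T, then a loop of 4 bases that begins TT, then the exact reverse complement of the first 6 bases. It was found in 61 of 67 members (91%) and in 5 of 21871 other protein-coding genes (0.0229%). It was not found in Hist1h2an, Hist1h3g, Hist1h1d, Hist1h2be, Hist1h4a and Hist2h2be. As annotated, Hist1h1d, Hist1h2be and Hist2h2be are longer than the 2000 bases searched, so a stem-loop further on would be missed there. The 3 commonest forms are shown because they are the hairpin that SLBP binds.
Stem-loop form in 39 members: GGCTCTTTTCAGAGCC
Stem-loop form in 9 members: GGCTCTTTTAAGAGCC
Stem-loop form in 8 members: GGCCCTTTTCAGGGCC

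The values below rest on 24 peak lists, 1 per library, that held between 47448 and 115923 peaks. DKO day 0 replicate 2 stood apart, with a narrowest peak of 440 bp where the other libraries had 155 to 165 bp, a median width of 1076 bp and 96.4 Mb under peaks. DKO day 6 replicate 3 had the fewest peaks, 47448, and WT day 3 replicate 3 had a highest fold enrichment of 159.2. At the targeted genes, a peak lay in the Hmgn2 window in 12 of 12 libraries from WT cells and in 0 of 12 from DKO cells, whereas the Hmgn1 window held one in 12 of 12 for each genotype. The adipocyte list (Fabp4, Adipoq, Cidec, Plin1, Lpl, Pparg, Lipe and Cebpa) summed to between 13.4 and 35.5 kb under peaks per library at day 0 and between 58.2 and 92.6 kb at day 9. The preadipocyte and stromal marker Dlk1 had no peak in any library, while Pdgfra and Col1a1 had one in all 24.

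Each gene was measured in a window from 1 kb before to 1 kb after it. The measures were the presence of a peak, the kb of the window under peaks, and the rank, which is the place of the window's best peak when the list is sorted by its −log10 q value. Rank 1 is the highest value, a later place means a weaker peak relative to the rest of the same library, and a window with no peak takes the place after the last peak. Places were not scaled to the length of the list, so between libraries they also depend on how many peaks a list holds. At day 6 Hist1h2bm had no peak in DKO replicate 3 and took place 47449, earlier than its peak in WT replicate 1 (57935). The number of mapped reads is unknown, so no interval for depth can be given. Neighbouring windows overlapped, and the 67 windows joined into 34 units, so members of a unit often share a peak and are not independent.

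Most clustered histone genes had an H3K27ac peak in their window at every stage. A peak was present in all 24 libraries for 44 members, in 4 to 23 libraries for 16 members, and in none for 7 members. Over the gene itself, without the 1 kb on either side, 24 members had a peak in all 24 libraries and 9 had none. Per library between 51 and 60 of the 67 members held a peak. Over all protein-coding genes the share with a peak was between 53.2% and 64.8% per library, and over the 1530 other protein-coding genes of at most 2 kb it was between 15.8% and 21.8%. The members with a peak in fewer libraries included Hist1h2bm (18 libraries), Hist1h2bk (17), Hist1h2ah (16), Hist1h4m (7) and Hist1h4n (4), all core histone genes of the Hist1 cluster.

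**Figure D1:**
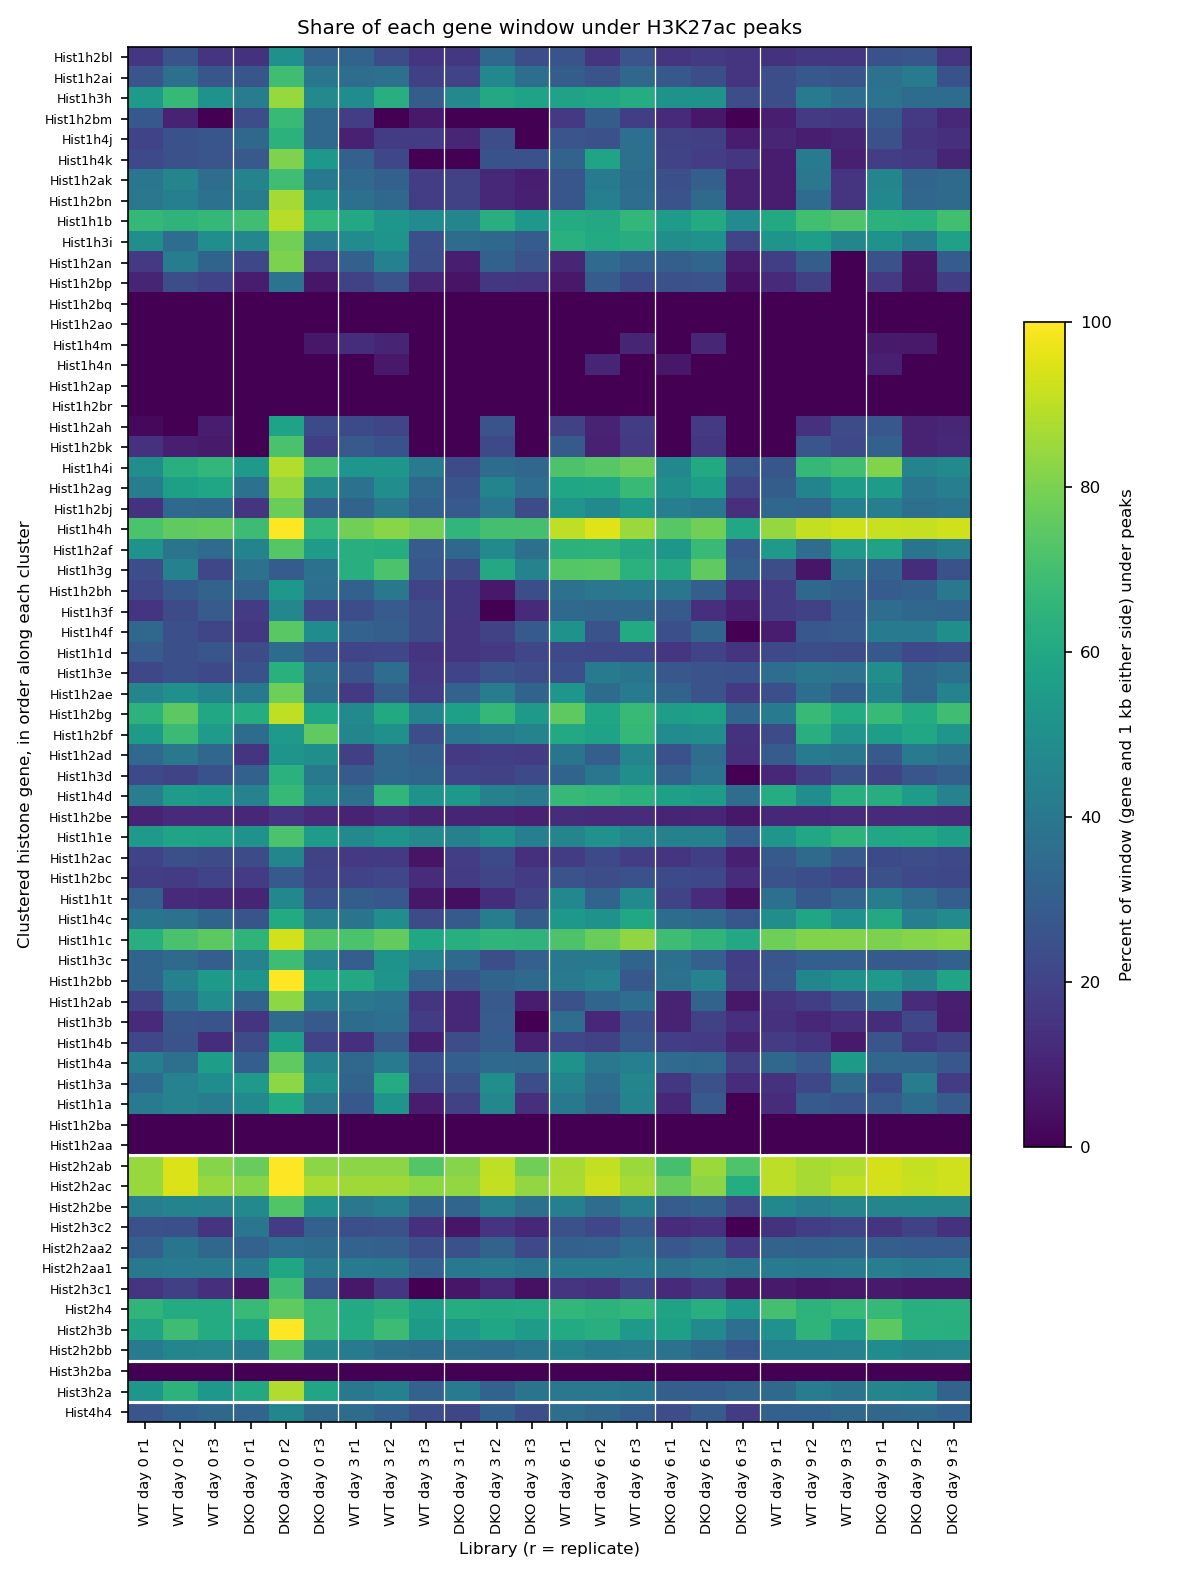
Percent of each gene window under H3K27ac peaks, for the 67 clustered histone genes (rows, in order along each cluster, white lines between clusters) in 24 libraries (columns, 3 per group). The rows of 7 genes are at 0 in all libraries, the Hist2 genes Hist2h2ab and Hist2h2ac have the highest shares (85% and 86.6% on average), and the column of DKO day 0 replicate 2 is brighter than the others.

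The 7 members with no peak in any library were of 2 kinds when the uniqueness of their sequence was examined. Every stretch of 75 bases in each window, the read length given in the study's methods, was counted in the 21 chromosomes of GRCm38. Hist1h2bq and Hist1h2br, H2B genes in the 2 copies of a duplicated segment of chromosome 13, had 0% of stretches found once in the genome, and 100% of the stretches of the first were also in the second. Hist1h2ao and Hist1h2ap, the H2A genes of the same segment, had 3.12% and 2.91%, with 95.7% of stretches shared. The H4 genes of the segment, Hist1h4m and Hist1h4n, had 9.11% and 16.5% and held a peak in few libraries. How the aligner placed reads that match more than 1 place is not given in the sources used here, so absence of a peak at these members cannot be read as absence of the mark.

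By contrast, Hist3h2ba (chromosome 11, an H2B gene) had 97% of its stretches unique, and the divergent testis genes Hist1h2ba and Hist1h2aa had 95.5% each. No peak was called at these 3 in any of the 24 libraries, and it is not known what level a call would have needed. Low uniqueness did not always go with missing peaks, since Hist2h2aa1 and Hist2h2aa2, the paired H2A genes of the Hist2 cluster, had 40.4% and 39.2% unique stretches and a peak in 24 libraries. Over all 67 members the median was 87.2%, with 8 members below 50% and 16 above 95%.

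**Figure D2:**
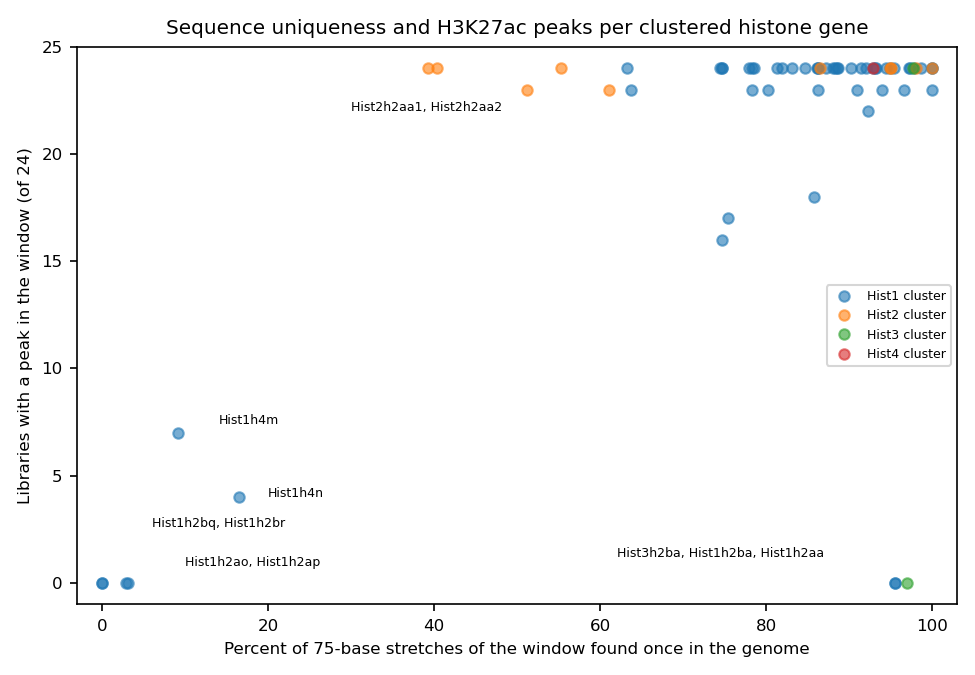
Libraries with a peak in the window (vertical axis, of 24) against the percent of 75-base stretches of the window found once in the genome (horizontal axis), 1 point per clustered histone gene, coloured by cluster. Of the 7 members at 0 libraries, 4 lie between 0% and 3.12% and 3 between 95.5% and 97%, while Hist2h2aa1 and Hist2h2aa2 have a peak in 24 libraries at 40.4% and 39.2%.

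The earliest ranks were those of 5 Hist2 genes, the single Hist4 gene and Hist3h2a. The following ranks are medians over 24 libraries, and 60 members with a peak in at least 3 libraries were ranked. Hist2h2aa1 (H2A, chr3:96245497-96246082) led with a median rank of 1019, and its rank was between 158 and 4834. The divergent pair Hist2h2ac and Hist2h2be, with Hist2h2ab beside them, shared 1 best peak at a median rank of 2309.5 and between 335 and 4826. Hist2h4 (H4, chr3:96261682-96263311) had a median rank of 3679.5, Hist4h4 (chr6:136801553-136804415) 3987 and Hist3h2a (chr11:58954685-58956830) 4041. The neighbours in this order overlapped over nearly their whole ranges, so no order between Hist2h4, Hist4h4 and Hist3h2a is shown by these values.

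Within the Hist2 cluster the ranks spread widely. Hist2h3b (H3) had a median rank of 6713, Hist2h2bb (H2B) 13845, Hist2h2aa2 16008, Hist2h3c1 16656 and Hist2h3c2 19804.5. The median of the 10 Hist2 members was 5196. The median of the 48 ranked Hist1 members was 28585, and their median ranks ran from 5990 for Hist1h1c to 93256 for Hist1h4n. The H3 genes Hist2h3c1 and Hist2h3c2 are near-identical in part, since 38.4% of the 75-base stretches of the first window were also in the second.

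Within Hist1, the 29 members of the stretch that holds all H1 genes but Hist1h1b (chr13:23531050-23764406) had a median of 18940, and the 14 ranked of 18 members at chr13:21715763-21837530 had a median of 32625. By family, the medians of the ranked members were 11383 for H1, 20781 for H2A, 21267 for H2B, 25376 for H3 and 29153 for H4. In each of the 24 libraries the median rank over the tested members, between 15665 and 29687, was later than that over all genes tested, between 8012 and 11073. The rank is that of the best peak in a window, and the longer window of a longer gene can hold more peaks. Genes were not matched for length here, so a weaker mark than at other genes of like size is not shown.

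**Figure D3:**
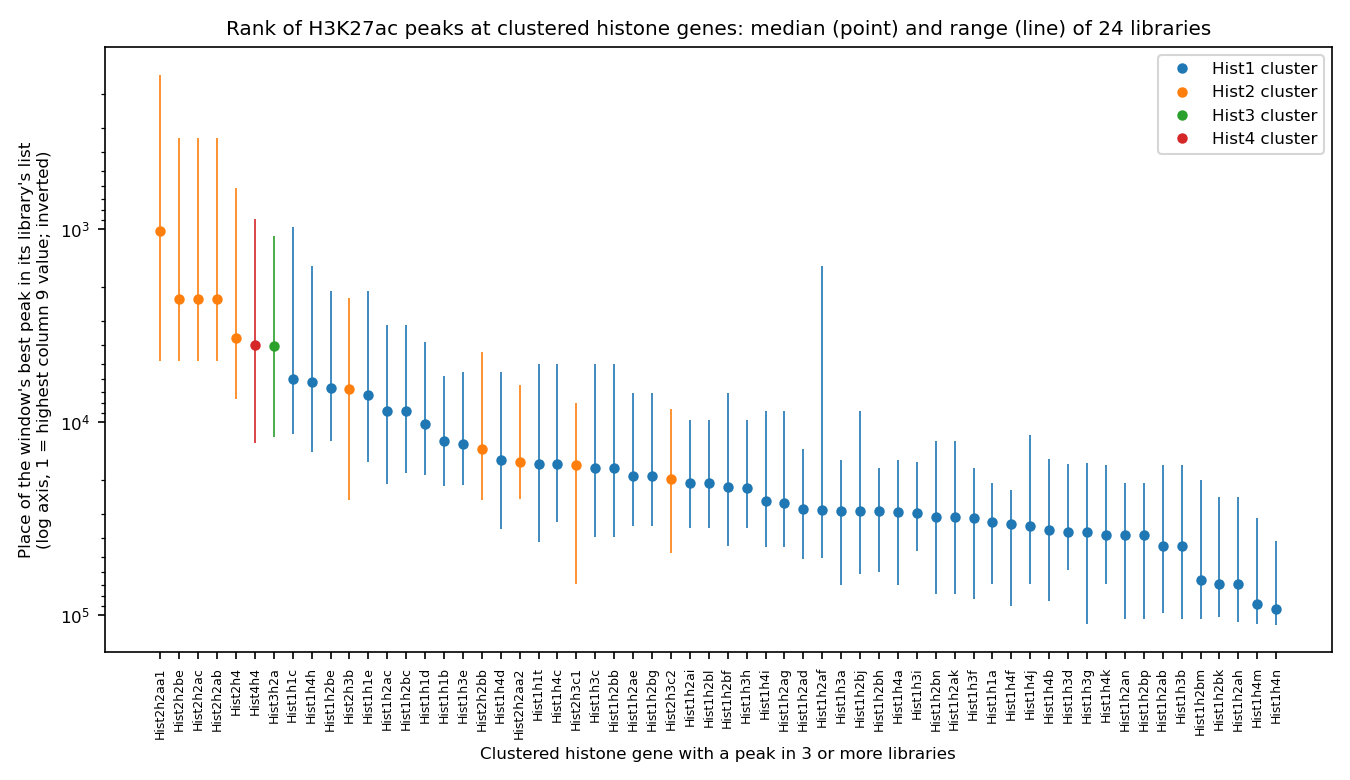
Rank of the best H3K27ac peak in the window for the 60 clustered histone genes with a peak in 3 or more libraries, on an inverted log axis (1 is the highest −log10 q value of a library), as the median (point) and range (line) of 24 libraries, coloured by cluster. The Hist2 genes Hist2h2aa1, Hist2h2be, Hist2h2ac, Hist2h2ab and Hist2h4 stand at the left, followed by Hist4h4 and Hist3h2a, and Hist1h4m and Hist1h4n at the right.

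The 6 H1 genes differed in level among themselves. Hist1h1c (H1.2, chr13:23738808-23740367) had the most peak coverage for its size, 2.6 kb on average or 73.1% of its window, with a median rank of 5990. Hist1h1b (H1.5, chr13:21779883-21780625) had 62.4% of its window covered and a rank of 12531. Hist1h1e (H1.4) and Hist1h1d (H1.3) had ranks of 7262.5 and 10235, with 51.8% and 22.2% of windows covered. The annotated Hist1h1d gene spans 7425 bp and is the longest of the 6.

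Hist1h1a (H1.1, chr13:23763666-23764406), with 31.7% of its window covered, had the latest rank of the family, 32978.5, and lacked a peak in DKO day 6 replicate 3. Hist1h1t, the testis H1 gene, held a peak in its window in 24 libraries and over the gene itself in 20. The summit of that best peak lay at a median of 2215 bp past the Hist1h1t start, inside the window of Hist1h4c, an H4 gene that had the same median rank of 16455.5. The values of Hist1h1t and Hist1h4c therefore cannot be told apart by rank.

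Fewer members had a peak over the start and the bases just before it than on either side. Over the 60 members, the mean share with the base under a peak was 17.9% at the start itself, 45.3% at 500 bp before it and 68.8% at 500 bp after it. In the 14848 other genes with peaks these shares were 24%, 38.6% and 58.3%. In WT cells at day 6, 9.44% of members had the base 50 bp before the start under a peak (6.67% to 13.3% over 3 libraries), against 77.2% at 550 bp after it (76.7% to 78.3%). In DKO cells at day 0 the first share was 22.2% and ran from 10% to 45%. Since neighbouring members lie within a few kb, coverage before the start can belong to the next gene.

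**Figure D4:**
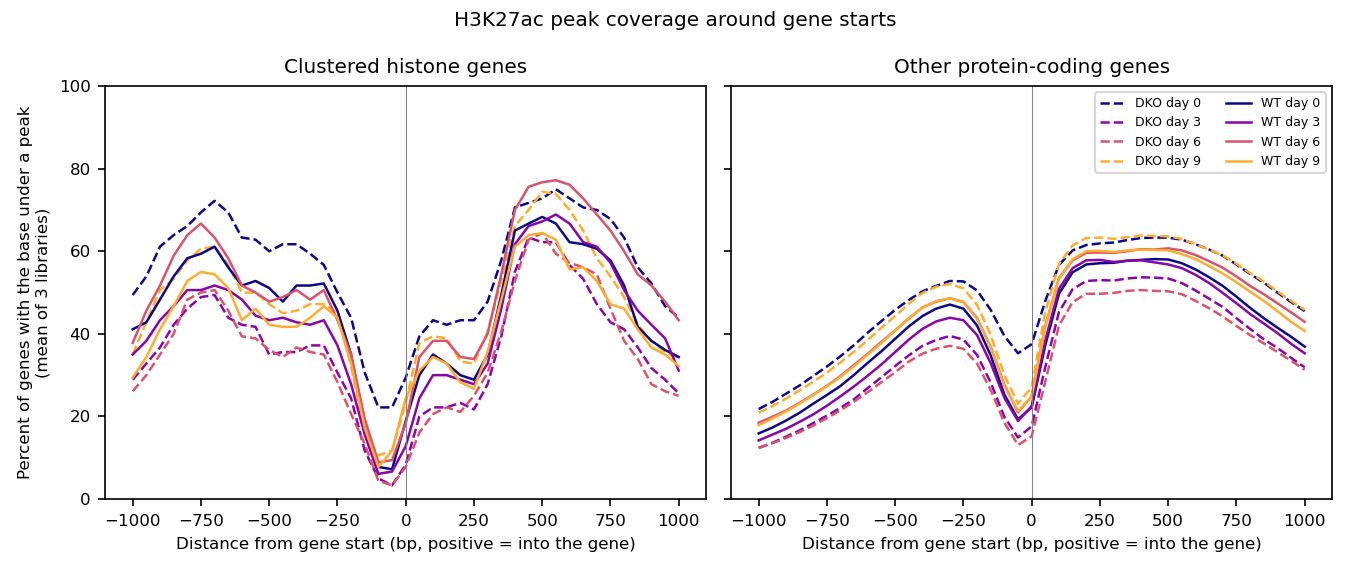
Percent of genes with the base under an H3K27ac peak (vertical axis, mean of 3 libraries) against distance from the gene start in bp (horizontal axis), for the 60 clustered histone genes and the 14848 other protein-coding genes tested, with WT as solid and DKO as dashed lines and 1 colour per day. Both panels dip at the start, and the histone genes fall to 3.33% at 50 bp before it in DKO cells at days 3 and 6.

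To ask whether loss of HMGN changed H3K27ac at these genes over the course of browning, the mean difference between DKO and WT over the 4 days was tested for each gene by an exact permutation test, two-sided, with genotype permuted within day (160000 relabellings) and Benjamini-Hochberg adjustment over all 14908 genes tested. Differences of opposite direction at different days cancel in such a mean, so this test cannot exclude a difference at single days. None of the 60 members tested differed in mean kb under peaks at an adjusted p under 0.05. Of all genes, 0.127% were called lower and 0.0268% higher in DKO. At an unadjusted p under 0.05 the count was also 0 lower and 0 higher, beside 5.8% and 3.95% of all genes, and the smallest adjusted p of a member was 0.54. The median difference over the members was -0.0312 kb, beside -0.0085 kb over all genes tested, and 39 of 60 members had a negative difference, where 52.2% of all genes did.

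The rank gave the same count. None of the 60 members passed the adjusted threshold in the same exact permutation test, where 1.56% of all genes had an earlier and 0.885% a later rank in DKO. At an unadjusted p under 0.05, 4 members had an earlier rank in DKO (Hist1h2bb, Hist1h3c, Hist1h3e and Hist1h4b) and 1 a later rank (Hist2h2aa1), where the shares over all genes were 12.9% and 7.06%. These 5 names were chosen after their values were seen. The smallest adjusted p of a member was 0.0738. Hist1h2bb and Hist1h3c share a unit and a median rank.

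Read day by day, the kb under peaks of the members differed between genotypes in opposite directions. With 3 against 3 libraries no exact permutation test of a single day can go below p = 0.1, so these are given as values and as the count of members whose 3 DKO libraries all lay outside the 3 WT libraries. At day 0, 8 members were higher in DKO without overlap (18.2% of all genes tested) and 0 were lower (0.704%). At day 3, 1 was higher (0.865%) and 5 were lower (11.3%). At day 6, 0 were higher (0.0939%) and 35 were lower (58.9%). At day 9, 8 were higher (27.8%) and 2 were lower (2.11%). The share of the 60 members was 58.3% at day 6 and 13.3% at days 0 and 9 for the more frequent direction, so at day 6 it was close to the share of all genes. In the order of the days, the median difference over the members was 0.27, -0.135, -0.381 and 0.0775 kb, beside 0.374, -0.168, -0.48 and 0.197 kb over all genes tested. Leaving out a library can only keep or raise such a count. Without DKO day 0 replicate 2, 4 members were lower and 9 higher at day 0, beside 9.55% and 18.5% of all genes. Without WT day 3 replicate 3, 24 members were lower in DKO at day 3, and 50.3% of all genes.

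Summed over the members, the direction at day 6 depended on the measure. At that day 59.9 ± 1.07 kb of their joined windows lay under peaks in WT libraries, against 41.9 ± 11.1 kb for DKO (SD, n = 3). The preadipocyte and stromal list (Pdgfra, Pdgfrb, Dlk1, Cd34, Ly6a, Thy1 and Col1a1) summed to between 39.3 and 42.5 kb in WT and between 10.9 and 17.7 kb in DKO at the same day, and the adipocyte list to between 83.6 and 88 kb and between 52.5 and 78 kb. The part of these cells in the difference at the histone genes was not tested. As a share of all the length under peaks in a library, however, they took 0.104% ± 0.00283 in WT and 0.137% ± 0.0041 in DKO at that day (SD, n = 3), with no overlap between the 3 libraries of each. At day 3 the share was 0.111% ± 0.00862 in WT and 0.123% ± 0.00855 in DKO, and the ranges overlapped. The day 9 libraries gave 0.0901% ± 0.00252 (WT) and 0.0841% ± 0.00163 (DKO), without overlap, and those of day 0 gave 0.104% ± 0.00333 and 0.102% ± 0.00602, with overlap. The covered length was between 20.7 and 36.3 Mb in the DKO and between 55.5 and 60.4 Mb in the WT libraries at day 6, so the share and the kb pointed in opposite directions. Among the WT libraries of all days, the one with the least covered length, WT day 3 replicate 3 (31.1 Mb), had the highest share (0.121%). The share of other genes was not computed, so a relative gain particular to the histone genes is not shown.

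The 3 members with the largest loss at day 6 among those without overlap were Hist1h2be, Hist1h1t and Hist1h4i. Hist1h2be (H2B, chr13:23583670-23621124), whose annotated transcript spans 37455 bp and overlaps Hist1h1e, held 5.24, 4.81 and 4.99 kb in the 3 WT libraries and 4.15, 4.21 and 2.59 kb in the 3 DKO libraries. At day 9 the order was reversed, with 4.55, 4.59 and 4.79 kb in WT and 4.92, 5 and 4.83 kb in DKO. Hist1h1t held 1.36, 0.921 and 1.38 kb in WT and 0.6, 0.371 and 0.128 kb in DKO at day 6. At day 9 it held between 0.797 and 1.07 kb in WT and between 0.879 and 1.22 kb in DKO, with overlap. The median summit of its best peak lay in the window of Hist1h4c, which differed by -0.642 kb at day 6. The kb of Hist1h1t can therefore belong in part to Hist1h4c.

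Hist1h4i (H4, chr13:22040636-22041362) held 1.97, 2.02 and 2.11 kb in WT and 1.27, 1.66 and 0.732 kb in DKO at day 6. It was also lower in DKO at day 3, with 1.43, 1.45 and 1.11 kb against 0.63, 0.966 and 0.9 kb. All 6 of those DKO libraries lay below the WT libraries of their day. DKO day 6 replicate 3 gave the lowest value of each of these 3 genes at day 6.

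The best member of each family was followed in the same way. Hist2h2aa1, the best H2A gene, held between 0.98 and 1.11 kb in 22 of 24 libraries, the exceptions being DKO day 0 replicate 2 (1.52 kb) and WT day 3 replicate 3 (0.815 kb). Its rank at day 6 was 594.5, 999.5 and 944 in WT and 4834, 4330 and 3490 in DKO, so that all 3 DKO libraries stood later at that day. Over the 4 days the difference had an unadjusted p of 0.0284 and an adjusted p of 0.188 in the exact permutation test. Hist2h4 held 2.4, 2.34 and 2.4 kb in WT and 2.09, 2.29 and 1.97 kb in DKO at day 6, without overlap.

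Hist1h1c, the leading H1 gene, held 2.56, 2.75 and 2.97 kb in WT and 2.46, 2.33 and 2.15 kb in DKO at day 6, again without overlap. Its rank went the other way at that day, with 4928, 6499 and 6366 in WT and 970, 2266 and 4792 in DKO. These places were not scaled to list length, which was 98503 to 105511 peaks in WT and 47448 to 74867 in DKO. A relatively stronger peak of Hist1h1c in DKO is therefore not shown by them. Its length at day 9 was 2.77, 2.88 and 2.88 kb in WT and 2.86, 2.92 and 2.96 kb in DKO, and these overlapped. Hist2h3b held 1.52, 1.57 and 1.34 kb in WT and 1.42, 1.18 and 0.909 kb in DKO at day 6, with overlap. Hist2h2be held 1.99, 1.66 and 1.95 kb in WT and 1.34, 1.44 and 0.959 kb in DKO at day 6, without overlap, a mean difference of -0.624 kb.

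**Figure D5:**
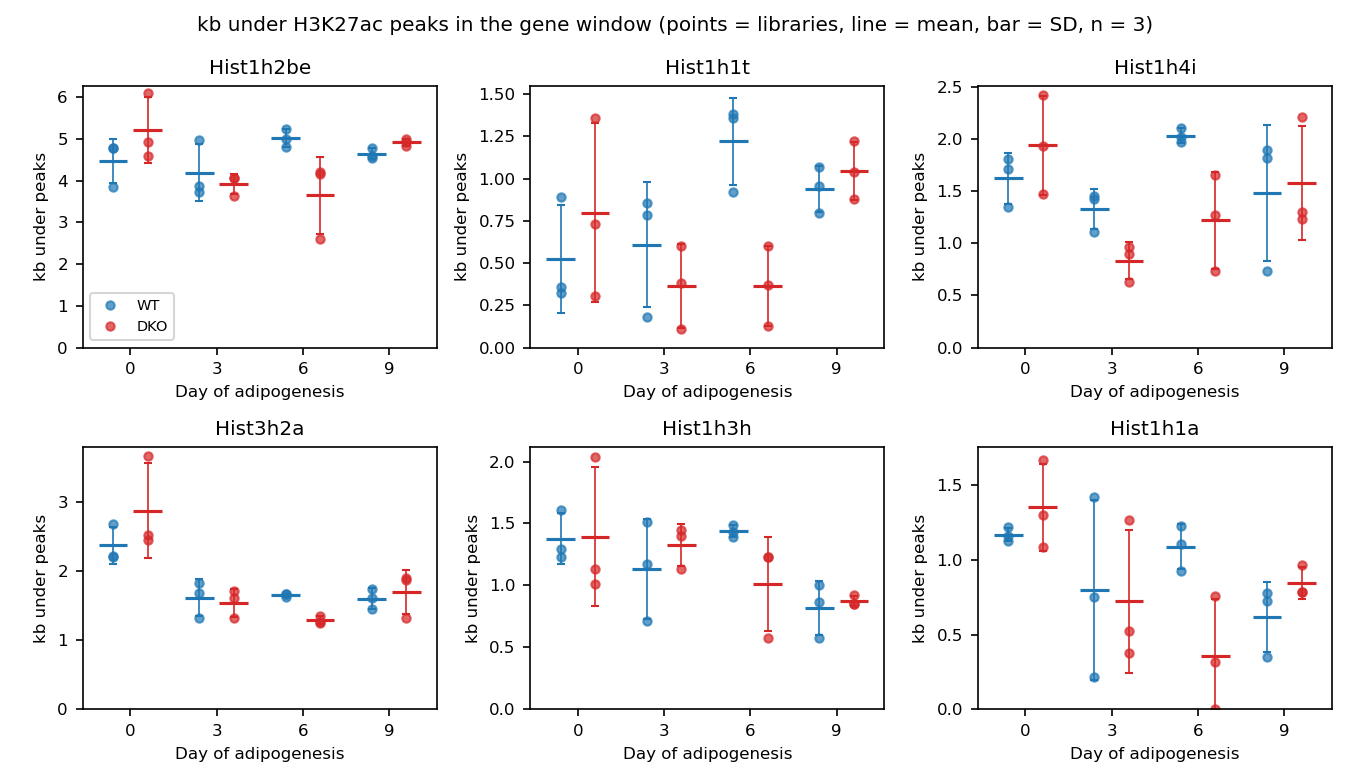
kb of the gene window under H3K27ac peaks (vertical axes, from 0) by day of adipogenesis (horizontal axes) for 6 clustered histone genes, with points for libraries, a line for the mean and a bar for the SD (n = 3), WT in blue and DKO in red. In the upper row DKO libraries lie below WT at day 6 without overlap, and in the lower row all 6 libraries of day 9 lie below all 6 of day 0.

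The course of differentiation was then compared with day 0. Day was permuted within genotype (400 relabellings, smallest p 0.005, exact permutation test, two-sided), and the comparisons of days 3 and 9 share the libraries of day 0. At day 3, 12 of 59 members tested (20.3%) had fewer kb under peaks at an adjusted p under 0.05, where 28.9% of all genes were called lower, and 0 had more, where 1.51% were called higher. The 12 were the H1 genes Hist1h1b, Hist1h1d and Hist1h1e, the H2A genes Hist1h2ac, Hist1h2ae, Hist1h2ak and Hist3h2a, the H2B genes Hist1h2bn, Hist2h2bb and Hist2h2be, and the H4 genes Hist1h4i and Hist1h4j, with 0 of the H3 genes. At an unadjusted p under 0.05, 16 were lower (39.7% of all genes) and 0 higher (2.43%). The median change of the members was -0.271 kb, beside -0.373 kb over all genes tested. Without DKO day 0 replicate 2, 7 members were lower at day 3, beside 23% of all genes. No member and no other gene (0%) was called lower at day 3 when the 20000 best peaks of each library, the 250 bp on either side of the summit, 1 kb on either side of the gene start or the rank was used instead.

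At day 9, 6 of 59 members (10.2%) had fewer kb than at day 0, where 14.5% of all genes were called lower, and 0 had more, where 16.2% were called higher. They were Hist1h1a, Hist1h3a, Hist1h3c, Hist1h3h, Hist1h4j and Hist3h2a. At an unadjusted p under 0.05, 13 were lower (18% of all genes) and 1, Hist1h4h, was higher (21.4%). The median change was -0.154 kb over the members and 0.0367 kb over all genes tested. By rank, 12 members (20.3%) stood later at day 9 than at day 0, where 11.7% of all genes did, and 1, Hist2h3c1, stood earlier, where 10.3% did. At day 3 neither the members nor any other gene passed by rank (0% in each direction), and at an unadjusted p under 0.05, 8 members stood later (15.6% of all genes) and 4 earlier (11.1%). Without DKO day 0 replicate 2, 8 members were lower and 5 higher at day 9 (Hist1h1c, Hist1h1t, Hist1h2bc, Hist1h4c and Hist1h4h), beside 14.2% and 30.5% of all genes. With 1 kb on either side of the gene start 0 members were called lower at day 9, and 0% of all genes, and with 250 bp on either side of the summit 0 members were, beside 4.31% of all genes.

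The number of members with all 6 libraries of day 9 below all 6 of day 0 was 3, where 9.07% of all genes tested had this pattern, and 0 had the reverse (7.68%). The first was Hist3h2a, an H2A gene outside the main clusters. It held 2.2, 2.68 and 2.22 kb in WT and 2.51, 3.66 and 2.44 kb in DKO at day 0. At day 9 it held 1.44, 1.74 and 1.6 kb in WT and 1.89, 1.87 and 1.32 kb in DKO, a mean change of -0.973 kb (adjusted p = 0.0208, exact permutation test). It was already low at day 3, with a mean change of -1.05 kb (adjusted p = 0.0231, exact permutation test), and its rank was later at day 9 by 2323 places (adjusted p = 0.0454, exact permutation test).

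The second was Hist1h3h, an H3 gene (chr13:21717659-21718069). It held 1.29, 1.61 and 1.23 kb in WT and 1.01, 2.04 and 1.13 kb in DKO at day 0, and 0.575, 0.999 and 0.869 kb in WT and 0.919, 0.849 and 0.85 kb in DKO at day 9. The mean change was -0.541 kb (adjusted p = 0.0208, exact permutation test), and at day 3 it was -0.155 kb (adjusted p = 0.59). The third was Hist1h1a, with 1.13, 1.22 and 1.16 kb in WT and 1.3, 1.67 and 1.09 kb in DKO at day 0. At day 9 it held 0.351, 0.778 and 0.727 kb in WT and 0.783, 0.969 and 0.784 kb in DKO, a mean change of -0.531 kb (adjusted p = 0.0208, exact permutation test).

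The H1 genes were compared at both days. At day 3 Hist1h1b, Hist1h1d and Hist1h1e had fallen by 0.457, 0.841 and 0.422 kb from day 0 (adjusted p = 0.0231 for each, exact permutation test). With only the 250 bp on either side of each summit the changes at day 3 were 0.0503 kb for Hist1h1b and 0.32 kb for Hist1h1e, in the other direction, and -0.394 kb for Hist1h1d, none of them called. The mean change of Hist1h1a at day 3 was -0.502 kb (adjusted p = 0.138, exact permutation test), close to its -0.531 kb at day 9. At day 9 their mean changes were -0.102, -0.35 and 0.0388 kb, with adjusted p of 0.689, 0.185 and 0.897 in the same test, and the difference between the days was not tested. Hist1h1d and Hist1h1b had all 6 libraries of day 3 below all 6 of day 0, as 6 of the 60 members did (16.4% of all genes tested), and 0 members had the reverse (0.812%). At day 6, 3 members, Hist1h1d, Hist1h1e and Hist3h2a, lay wholly below day 0 (15.2% of all genes) and 0 wholly above (2.54%).

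The immune marker list (Ptprc, Adgre1, Cd68, Csf1r, Cd3e and Cd79a) summed to between 18.6 and 42.6 kb per library at day 0 and between 6.72 and 10.1 kb at day 9. Of its 5 tested genes, 4 were called lower at day 9, where 14.5% of all genes were. Cd3e, a T-cell gene, had no peak in any library, Cd68 and Csf1r of myeloid cells and Cd79a of B cells had one in all 24, and Adgre1 and Ptprc had one in 20 and 17. The endothelial list (Pecam1, Cdh5, Tek and Kdr) summed to between 5.21 and 13.9 kb at day 0 and between 2.69 and 5.63 kb at day 9. The part of these cells in the changes of the histone genes was not tested, and in bulk chromatin fewer cells of a type and less of the mark per cell cannot be told apart.

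The genes that serve the clusters were marked throughout. Of 14 genes of histone gene transcription and 3′ end processing, 13 had a peak in all 24 libraries. Slbp, which binds the stem-loop, had a mean of 1.69 kb under peaks and a median rank of 1749, and Npat had 1.74 kb and 9039. The highest and lowest mean were 3.4 kb at Srrt and 0.502 kb at Cstf2, a subunit of the cleavage machinery. No gene of this list differed in kb between genotypes in the 4-day test (0 of 14), where 0.127% of all genes were called lower and 0.0268% higher. At day 3, 2 of 14 were lower (Cpsf3 and Lsm10), where 28.9% of all genes were. At day 9, 0 differed, where 14.5% of all genes were lower and 16.2% higher.

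Of 11 replication-independent histone genes, 9 had a peak in all 24 libraries, H2afy2 in 20 and the linker histone gene H1fx in 1. The highest mean was 3.43 kb at H2afy, which encodes macroH2A1, and the lowest was 0.00688 kb at H1fx. H3f3a and H3f3b, the genes of histone H3.3, had median ranks of 1348 and 1700, earlier than those of all clustered genes except Hist2h2aa1. H3f3b had fallen by 2.32 kb at day 3 (adjusted p = 0.0231) and by 1.63 kb at day 9 (adjusted p = 0.0208, exact permutation test). H2afy2 was the other gene lower at day 3, so 2 of the 10 tested were, beside 28.9% of all genes. At day 9, 1 of the 10 was lower, beside 14.5% of all genes. None of the 10 differed between genotypes in kb, where 0.127% of all genes were called lower and 0.0268% higher.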

How the data were processed

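H3K27ac ChIP-seq of 24 libraries (WT and DKO, 4 days, 3 replicates each) was used, and 16 input libraries without lists were not analysed here. Per the submitters' processing notes, bcl2fastq 2.17, cutadapt 1.18, BWA 07.17 and MACS2 2.1.1.20160309 were used with build mm10. The authors called peaks in each library on its own. The deposited lists give positions, the summit, a fold enrichment (a ratio over the local background) and −log10 q values. The q values were used here to rank peaks and, in an alternative, to keep only peaks with −log10 q of at least 5. Which input served which list is not given in the sources used here.

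Peaks were intersected with windows of GENCODE M21 genes (Python 3.11.15, NumPy 2.4.6, pandas 2.3.3, numba 0.67.0). A gene was tested if at least 3 libraries held a peak and its values varied. Exact permutation tests, two-sided, ran over all such genes with Benjamini-Hochberg adjustment at 0.05, and were tested on simulated data. They measure the spread between these libraries.

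Named members were, by rule, those called between genotypes, the best rank of each family, those without a peak, all H1 genes and all outside Hist1, and up to 3 per direction by the largest difference in kb without overlap at day 6 and at day 9 against day 0. Members and lists were chosen with earlier results of these data known. Alternatives were other peak and window definitions, libraries left out, rank or percentile in place of kb, and a replicate block.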

Additional observations from a re-analysis of the deposited data

Results flagged for a closer look

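The clustered histone genes listed here drew attention because, in kb under H3K27ac peaks, all 3 DKO libraries lay on one side of the 3 WT libraries at 1 day and on the other side at another day. This held for 13 of the 60 members tested (21.7%), where 23.6% of all genes tested had it, and the difference between the days was not tested. The values are mean DKO minus WT, in kb. Hist1h1a (H1) differed by -0.733 kb (day 6) and 0.227 kb (day 9). For the H2A gene Hist1h2ae the difference was 0.374 kb (day 3) and -0.489 kb (day 6). At Hist1h2be (H2B) it was -1.36 kb (day 6) and 0.271 kb (day 9). Hist1h3a (H3) differed by 0.5 kb (day 0) and -0.619 kb (day 6). For the H3 gene Hist1h3d the difference was 0.737 kb (day 0) and -0.353 kb (day 3). At Hist1h3f (H3) it was -0.509 kb (day 3), -0.538 kb (day 6) and 0.402 kb (day 9). Hist1h4j (H4) differed by 0.553 kb (day 0), -0.38 kb (day 6) and 0.227 kb (day 9). For the H4 gene Hist1h4k the difference was 0.68 kb (day 0) and -0.562 kb (day 6). At Hist2h2ab (H2A) it was -0.284 kb (day 6) and 0.101 kb (day 9). Hist2h2ac (H2A) differed by -0.385 kb (day 6) and 0.085 kb (day 9). For the H2B gene Hist2h2bb the difference was -0.245 kb (day 6) and 0.0833 kb (day 9). At Hist2h2be (H2B) it was 0.578 kb (day 0) and -0.624 kb (day 6). Hist2h4 (H4) differed by 0.271 kb (day 0) and -0.261 kb (day 6). The 6 higher values at day 0 include DKO day 0 replicate 2, whose peaks were the widest (median 1076 bp). They had a median of 0.566 kb with it and of 0.253 kb (0.179 to 0.433 kb) without it. The 12 lower values at day 6 include DKO day 6 replicate 3, which had the fewest peaks (47448), and had a median of -0.513 kb with it and of -0.392 kb (-0.835 to -0.174 kb) without it. The direction without these libraries is fixed by the way the genes were picked. Dixon's rule for a single outlying value was not applied to groups of 3 libraries.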

How the results depend on the processing

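The count of members called between genotypes in kb under peaks was 0, in both directions, under every alternative run for it. By rank it was 0 under every alternative run except 1. With the gene body only, 1 member, Hist2h4, had a later rank in DKO (adjusted p = 0.0372, exact permutation test). The share of all genes called in that alternative is not given here. A pairing by replicate number was not evident, since 4 of 12 same-numbered pairs correlated above 0.1 (range -0.844 to 0.902). With 3 libraries per group these values cannot exclude one. The fit with replicate block gave 0 members in kb and 0 by rank, with a smallest adjusted p of 0.623 and 0.0851. The replicate block and the alternatives that leave out libraries allow fewer relabellings than the main genotype test, so their smallest possible p is larger. The share of all genes called between genotypes under them is not given here, so their counts of 0 do not show that the result held. Of 12 members lower at day 3 than day 0, the count was 7 without DKO day 0 replicate 2, 8 without WT day 3 replicate 3, 4 with the gene body only, and 0 with 20000 peaks per library, with 250 bp either side of the summit, with 1 kb either side of the gene start and with rank in place of kb. Of 6 members lower at day 9, the count was 8 without DKO day 0 replicate 2, 2 with 20000 peaks per library and with the gene body only, 0 with 250 bp either side of the summit and with 1 kb either side of the gene start, and 12 with rank in place of kb. Against 0 members higher at day 9, there was 1 with the gene body only (Hist1h4c), 5 without DKO day 0 replicate 2 and 1 with rank in place of kb. For the gene body only, for 20000 peaks per library at day 9 and without WT day 3 replicate 3, the share of all genes is not given here. A change in those counts is therefore not read as particular to the members. Leaving out a replicate number from every group gave between 0 and 0 members at both days, in a test of 36 relabellings whose smallest p, 0.0556, cannot pass the threshold. Day 3 minus day 0 turned positive with 20000 peaks per library for Hist1h2ae (0.0175 kb). With 250 bp either side of the summit it was positive for Hist1h1b (0.0503), Hist1h1e (0.32), Hist1h2ac (0.0943), Hist1h4i (0.224), Hist2h2bb (0.167) and Hist2h2be (0.145 kb). The cause of these changes was not tested. DKO minus WT in members with a peak moved with 20000 peaks per library from 0.333 to 2.33 at day 0, from -3 to 3.33 at day 3 and from -3 to 6.33 at day 6, and with the gene body only to -9.33 at day 6 and from 2.33 to 5 at day 9. The alternative without DKO day 6 replicate 3, and the leaving out of libraries from counts without overlap, were chosen after seeing the data. The unknown number of mapped reads limits every call of absence.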
